A study of Arabidopsis thaliana with 8 samples.

Results

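Seedlings labelled chr11/17, with mutations in both ATPase genes of the Arabidopsis ISWI complexes, were compared with wild type (WT) across the transcriptome. The comparison covered every gene of the chr11/17 table with a value of at least 10 in 2 or more of its 4 libraries, which kept 20878 of 23427 genes and used 4 of the 8 libraries of the series. WT is unmutated Col-0; the mutant carries the genotype label chr11(-/-)chr17(-/-) in Col-0, and the alleles are not named in the labels. Whole seedlings of both groups were taken at 10 days from MS plates kept at 23 °C during 16 h of light and at 21 °C during 8 h of darkness, and messenger RNA was sequenced from Trizol-extracted total RNA, with n = 2 libraries per group. The series holds 2 further groups of the same age and growth, arid5 and rlt1/2, which carry mutations in other subunits of the complex and enter only the last comparison here. No label says whether the libraries of a group came from separate cultures, so each p-value reflects no more than the spread between the sequenced samples, and that spread may be technical.

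ISWI remodellers are ATP-driven machines that slide and space nucleosomes. In Arabidopsis the closely related proteins CHR11 and CHR17 supply the ATPase, and they work with DDT-domain partners such as RLT1 and RLT2 and with the ARID5 subunit. Loss of both ATPases is known for small, early-flowering plants with defects of growth and organ identity. A whole seedling mixes leaves, stem, meristem and root, so fewer cells of a type and less RNA per cell cannot be told apart in these libraries.

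The recovered reads numbered 25912962 and 25831081 in the WT libraries and 25422372 and 25215390 in the chr11/17 libraries. Replicates differed more in the mutant: the chi-square per degree of freedom over genes was 3.43 between the WT libraries and 14.7 between the chr11/17 libraries. Lists of genes that mark tissues other than the seedling shoot were also counted. Root is among these tissues and was part of the seedlings taken. Over all genes tested 35.9% were called higher and 36% lower. Of 5 tested seed and embryo genes 4 were higher in chr11/17 and 1 was lower. That fall was not called without WT replicate 1 or either chr11/17 replicate. The summed value of the 11 seed genes in the table, tested or not, was 101 and 44 in WT and 565 and 244 in chr11/17. The summed value of 11 root genes was 2475 and 2493 in WT and 3018 and 3118 in chr11/17, with 7 called higher and 1 lower (2 lower without either chr11/17 replicate). Of the anther genes, 3 of 7 were in the table analysed and 1, LAP6, reached the level for testing. LAP6 was called lower, but not without WT replicate 1 (adjusted p = 0.0781) or 2 (0.0708), with equal library totals (0.0541) or with DESeq2 (0.0573). The part of tissue make-up in the results below was not tested.

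The mutated genes were examined first. CHR11 (AT3G06400) stood at 3077 and 2915 in WT and at 7226 and 7319 in chr11/17, on the scale of normalised read counts that the authors deposited. CHR17 (AT5G18620) stood at 1395 and 1316 in WT and at 771 and 833 in chr11/17. CHR11 was thus higher in both mutant libraries than in either WT library and CHR17 lower, with log2 changes of 1.28 ± 0.07 and -0.75 ± 0.08 (SE, n = 2 per group). The rise of CHR11 goes against a loss of its transcript. Values summed over a whole gene do not tell which exons were read, and the libraries are therefore called labelled chr11/17; every direction below rests on that label. Of the other subunits, MSI3, a histone-binding WD40 protein, moved from 299.9 and 278 to 511 and 517 (log2 change 0.81 ± 0.10), RLT1 from 1763 and 1782 to 2323 and 2343 (0.39 ± 0.06), and ARID5 from 829 and 844 to 1051 and 1014 (0.30 ± 0.07). These 3 rose in the test across all genes, although ARID5 was not called without WT replicate 1 (adjusted p = 0.0623). RLT2 (2067 and 1955 in WT, 1902 and 1849 in chr11/17; adjusted p = 0.223) and FHA2 (601 and 639, 683 and 528; adjusted p = 0.773) were not called.

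Most of the transcriptome differed. At an adjusted p under 0.05, 14992 genes were called, 71.8% of those tested; 7485 were higher in the libraries labelled chr11/17 (35.9%) and 7507 were lower (36%). Changes of more than 1 on the log2 scale were found in 3420 higher genes (16.4%) and 3463 lower genes (16.6%). The values of the groups did not overlap in 18221 of the 20878 genes tested, so a lack of overlap says little by itself. With so large a background a single call says little, and each list below is read against those shares and against the median change over all genes tested, which was -0.01. Libraries scaled to equal totals moved that median to 0.15, and the calls then split into 8874 higher and 6273 lower genes; changes smaller than that shift depend on the scale.

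**Figure D1:**
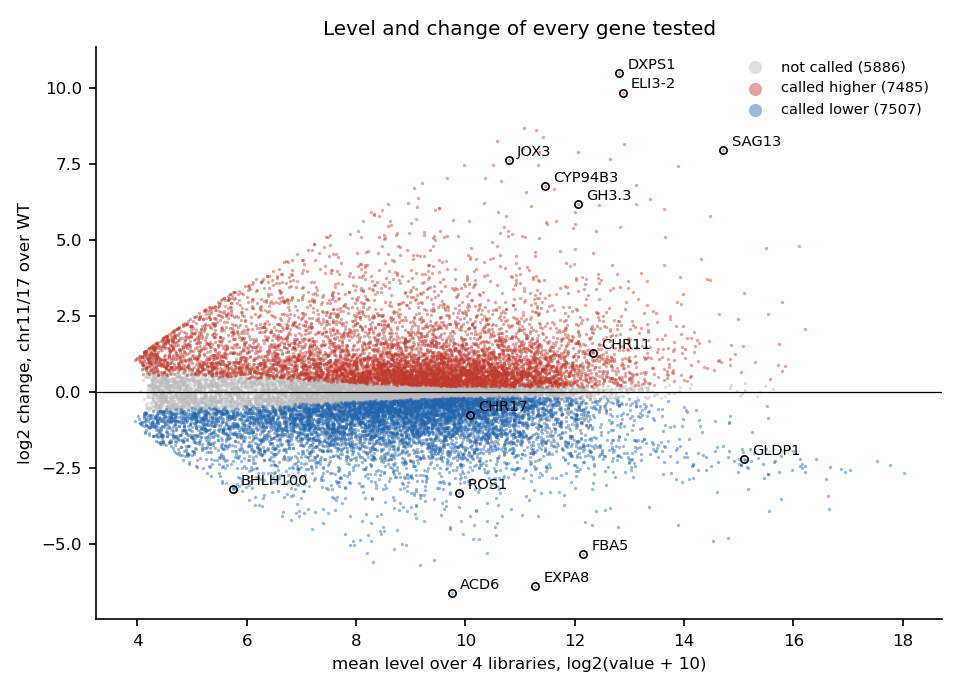
Each point is 1 of the 20878 genes tested; the horizontal axis is the mean over the 4 libraries as log2(value + 10) and the vertical axis the log2 change of chr11/17 over WT. Red points were called higher (7485), blue lower (7507) and grey were not called; circles mark genes described in the text, from DXPS1 at 10.49 to ACD6 at -6.61.

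Many of the largest rises were in genes at a low level in WT seedlings, although SAG13, described with senescence, stood at 267 and 162 there. DXPS1 (AT3G21500), annotated as a copy of the enzyme that starts the plastid isoprenoid pathway, had 0 reads in both WT libraries and values of 15216 and 13568 in chr11/17. That is at least 4584-fold higher, counted against 3 reads per WT library, and a log2 change of 10.49 ± 0.10 on the log2(value + 10) scale, which understates changes of low genes. ELI3-2 (AT4G37990), an aromatic alcohol dehydrogenase induced by pathogens, went from 6.32 and 6.25 to 16202 and 13808, a log2 change of 9.84 ± 0.11. Enzymes of volatile release were among them. CYP82G1 (AT3G25180), which makes a homoterpene volatile given off by attacked leaves, had 0 and 3 reads in WT and 2094 and 2084 in chr11/17, a ratio of 1272 with an exact 95% interval of 435 to 6171 for counting error. BSMT1 (AT3G11480), which methylates salicylate and benzoate to volatile esters, had 0 reads in both WT libraries and values of 1159 and 1170.0 in chr11/17, at least 371-fold higher. Lack of overlap between groups was a condition for naming DXPS1 and ELI3-2. CYP82G1 and BSMT1 were picked for few reads in WT and a high mutant mean. The separation of these genes is therefore no added evidence.

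Further large rises spanned defence, transport and nutrient release. GSTU3, a glutathione transferase, had 1 and 0 reads in WT and 4735 and 4285 in chr11/17, a ratio of 8239 whose interval runs from 1478 to 325448. NATA1, an acetyltransferase acting on ornithine, rose from 9.53 and 14.5 to 5295 and 5108, and TH8, an h-type thioredoxin, from 72.3 and 36.7 to 14501 and 11087. The amino acid exporter family member UMAMIT25 went from 10.4 and 3.18 to 5853 and 5097 and the cellulose synthase-like gene CSLG2 from 4.17 and 1.07 to 5531 and 4415. RNS1, a secreted ribonuclease known from phosphate starvation and wounding, rose from 27.3 and 24 to 9779 and 7276. The ratio of the group means ran from 235 in TH8 to 8239 in GSTU3. Of 1666 genes with at most 3 reads in each WT library, 118 reached a mean of at least 50 in chr11/17; those 118 also held AO4, an aldehyde oxidase, the kinase gene MAPKKK21 and the unnamed locus AT1G10586, with chr11/17 values of 1859.7 and 1354, 1225 and 968, and 994 and 1098.

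Falls of the same kind were fewer. Of 1022 genes with at most 3 reads in each chr11/17 library, 21 had a WT mean of at least 50. ACD6 (AT4G14400), an ankyrin-repeat membrane protein that promotes salicylate defence, fell from 1518 and 1862 to 1.81 and 15.4 (log2 change -6.61 ± 0.34). EXPA8, a wall-loosening expansin, fell from 4603 and 5207 to 38.1 and 62.2, the B-box gene BBX27 from 1107 and 1120.3 to 6.59 and 19.2, and the aldolase gene FBA5 from 8869 and 8937 to 149 and 304. These 4 genes were picked among the largest falls without overlap, so the gap between their groups was fixed by that choice. PRB1, a relative of the pathogenesis protein PR1, had 185 and 73 reads in WT and 0 in both chr11/17 libraries, at least 47.1-fold lower. PCC1, a small gene under pathogen and clock control, had 128 and 118 reads in WT and 1 and 0 in chr11/17, a ratio of 269 with an interval of 47.9 to 10681. The unnamed loci AT4G01460 (563 and 613 reads in WT, 3 in each chr11/17 library) and AT3G09160 (113 and 101, 0 and 1) were equally low.

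**Figure D2:**
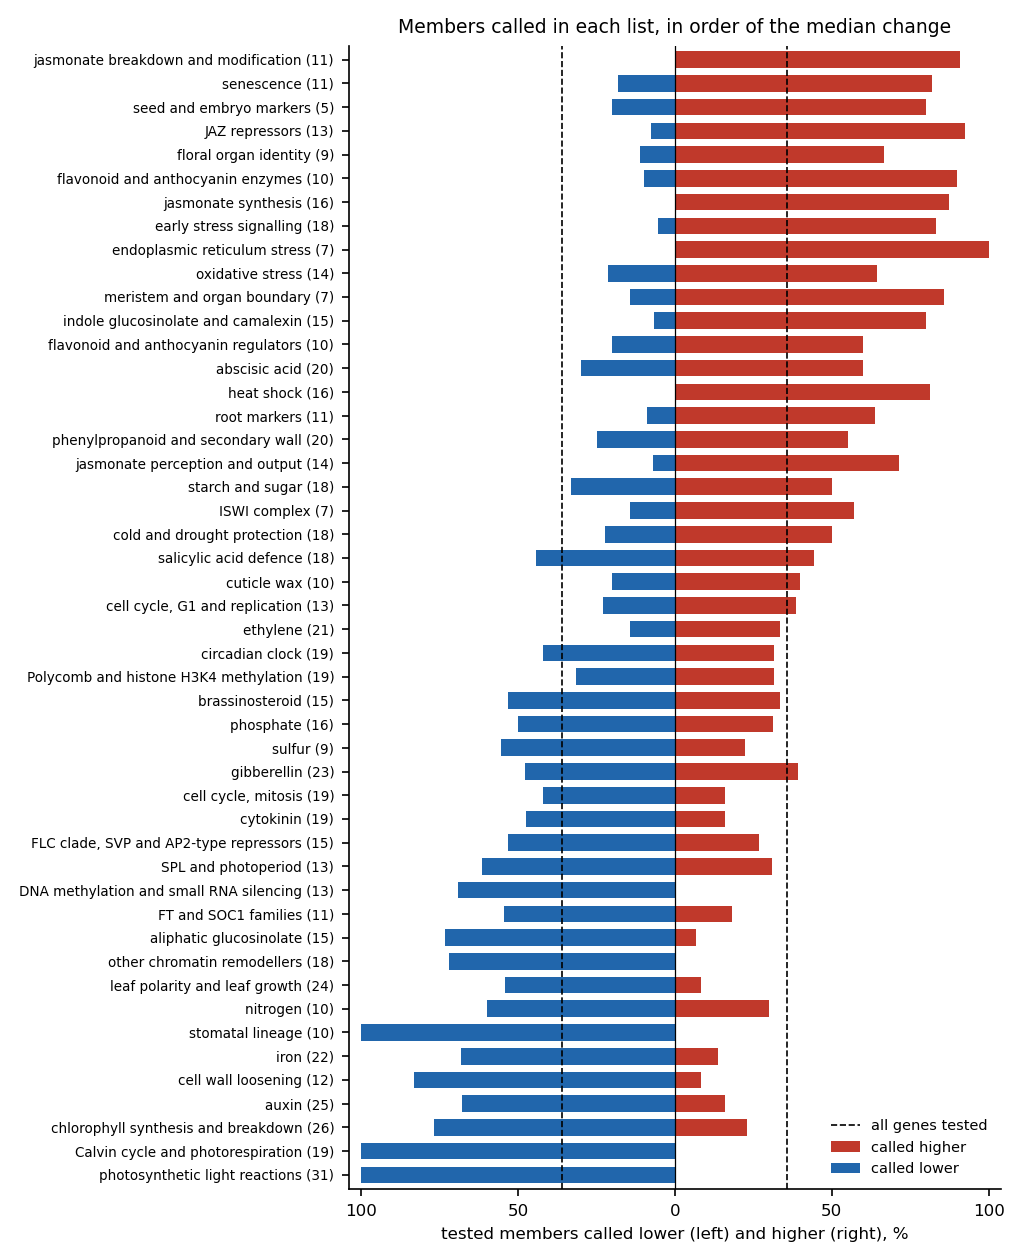
Bars give the percent of tested members of each gene list that were called lower (left, blue) or higher (right, red) in chr11/17, with the number tested in parentheses and lists in order of their median change; dashed lines mark the shares over all genes tested, 36% and 35.9%. Jasmonate, senescence and stress lists lie beyond the line on the right, and photosynthesis, chlorophyll, auxin and wall loosening lists beyond it on the left.

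Jasmonate is a lipid hormone of wounding and defence. It is made from plastid lipids, joined to isoleucine, and read by the receptor COI1, which removes the JAZ repressors from MYC factors. Genes of its synthesis and breakdown and the JAZ repressors are themselves switched on by the hormone. In these 3 groups 36 genes rose and 1 fell, against backgrounds of 35.9% and 36%.

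In synthesis, 14 of 16 tested members rose and 0 fell, with a median log2 change of 2.25; 12 rose by more than 1. The lipases DAD1 and DGL, which release the fatty acid precursor, had 0 reads in both WT libraries and values of 173 and 206, and 85.3 and 82.9, in chr11/17, at least 60.4-fold and 26.8-fold higher. The 13-lipoxygenase LOX4 went from 83 and 62.6 to 2959 and 3224, and the allene oxide cyclase AOC3 from 106 and 144 to 3154 and 2871. The reductase OPR3 rose from 631 and 589.9 to 4443 and 5136 and JAR1, which joins jasmonate to isoleucine, from 1804 and 1801 to 3323 and 3622. The groups did not overlap in these 6 genes, as in 18221 of the 20878 genes tested. The changes ran from 0.94 ± 0.07 in JAR1 to 5.24 ± 0.13 in LOX4. ACX5 and AOC2 were not called: ACX5 had 583 and 569 in WT against 714 and 572 (adjusted p = 0.287), and AOC2 1569 and 1417 against 1645 and 2290.0 (adjusted p = 0.0542). AOC2 was called higher without chr11/17 replicate 1 (adjusted p = 0.00603), with equal library totals (0.016), edgeR (0.0366) and DESeq2 (0.0243). ACX5 was called higher without chr11/17 replicate 2 (adjusted p = 0.0283) and with equal library totals (0.0431).

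In breakdown and modification 10 of 11 members rose, 0 fell, and the median log2 change was 3.68. The jasmonate oxygenases JOX2, JOX3 and JOX4, which hydroxylate the free acid, took the values 128 and 119.7, 6.35 and 9.34, and 0 reads in WT. In chr11/17 they stood at 8522 and 7642, at 3590.2 and 3449.8, and at 2838 and 3202. CYP94B3, a P450 that oxidises jasmonoyl-isoleucine, rose from 39 and 43.7 to 5925 and 5220.3, a 135-fold difference of means, and its relative CYP94C1 from 49.6 and 58.2 to 741 and 872. The amidohydrolase IAR3, which cleaves the conjugate, rose from 816 in each WT library to 11094 and 10075. The 4th oxygenase stood apart: JOX1 had 22 and 14.6 in WT and 10.6 and 8.56 in chr11/17 and was not called (adjusted p = 0.0771; called lower under quantile normalization, adjusted p = 0.031).

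Of 13 JAZ repressors 12 rose and 1 fell. JAZ7 and JAZ13 had 2 to 4 reads in each WT library and values of 231 and 245, and of 286 and 311, in chr11/17. JAZ1 rose from 221 and 281 to 7159 and 5884. JAZ8, which lacks the sequence by which COI1 removes other JAZ proteins, rose from 5.3 and 8.3 to 133 and 149 (log2 change 3.17 ± 0.20). JAZ11 went the other way, from 362 and 366 to 283 and 238, below both WT libraries (log2 change -0.47 ± 0.12), but was not called without WT replicate 1 (adjusted p = 0.0611) or replicate 2 (adjusted p = 0.0671). The median of the family was 2.70.

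In the list of perception and output 10 of 14 tested members rose and 1, the receptor gene COI1, fell, with a median of 0.48. Over all genes tested the shares were 35.9% and 36%. COI1 stood at 1138 and 1128 in WT and 945 and 996 in chr11/17 (log2 change -0.22 ± 0.07), a fall that was lost with equal library totals (adjusted p = 0.467), with DESeq2 (adjusted p = 0.151) and without each of 3 libraries (WT replicate 1, adjusted p = 0.137; WT replicate 2, 0.119; chr11/17 replicate 1, 0.0562). MYC4 was not called (684 and 629, 597 and 699), and MYC3 rose by 0.32 ± 0.08, but was not called when WT replicate 2 (adjusted p = 0.0966) or chr11/17 replicate 1 (adjusted p = 0.0521) was left out. MYC2 is not in the table analysed. Output genes of the wound branch rose: VSP1, a storage protein and insect toxin, from 223 and 146 to 2923 and 3471, TAT3 from 82.4 and 129.7 to 1083 and 1001, and the cystine lyase CORI3 from 2035 and 1651 to 43126 and 34132. In the branch shared with ethylene neither gene was called. PDF1.2, a defensin, had 22.3 and 41.4 in WT and 7.03 and 137 in chr11/17, so that its mutant libraries fell on either side of WT; it was called higher without chr11/17 replicate 1 (1.86, adjusted p = 0.0143) and lower without replicate 2 (-1.26, adjusted p = 0.0377). Its activator ORA59 had 19.2 and 41.4 against 48.9 and 40 (adjusted p = 0.177), and was called higher without WT replicate 2 (adjusted p = 0.0312).

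**Figure D3:**
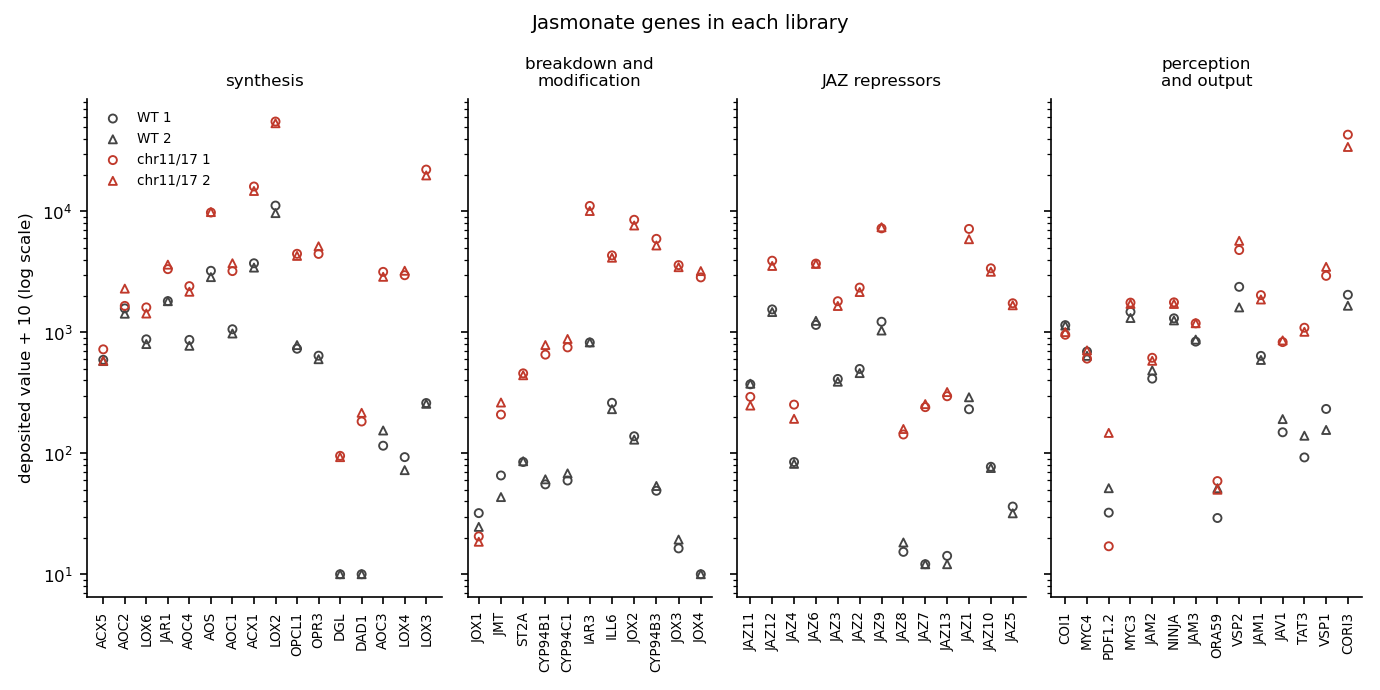
Deposited value + 10 on a log axis for each jasmonate gene in the table, by library (grey, WT; red, chr11/17; circles replicate 1, triangles replicate 2), with genes in order of their log2 change in each panel. The chr11/17 points lie above the WT points for most genes, while ACX5, MYC4, PDF1.2 and ORA59 overlap and JOX1, JAZ11 and COI1 lie lower.

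Promoter windows are shown for JAZ genes, most of which rose. The window is the 300 bases before the annotated gene start in the TAIR10.1 assembly (RefSeq), searched on both strands for the G-box CACGTG, to which MYC factors can bind. It was present in 5 of the 12 JAZ promoters of genes that rose (41.7%), 2 of 14 for synthesis (14.3%) and 0 of 10 for breakdown. In other lists searched it was in 22.6% of light reaction genes that fell and 23.1% of heat shock genes that rose. For the clock it was in 3 of 6 genes that rose and 3 of 8 that fell. Among early stress genes that rose it was in 0 of 15. The G-box was thus also common in lists that fell and absent from 1 other list that rose. The shares over larger sets were 9.72% of genes called higher, 7.53% of genes called lower, 8.11% of the 20461 promoters of genes tested and 7.09% of all 27443 promoters of protein-coding genes. The 5 windows are shown with the G-box in capitals, reading from 5′ to 3′ towards the gene.
JAZ2 (chr1:28150447-28150746, minus strand): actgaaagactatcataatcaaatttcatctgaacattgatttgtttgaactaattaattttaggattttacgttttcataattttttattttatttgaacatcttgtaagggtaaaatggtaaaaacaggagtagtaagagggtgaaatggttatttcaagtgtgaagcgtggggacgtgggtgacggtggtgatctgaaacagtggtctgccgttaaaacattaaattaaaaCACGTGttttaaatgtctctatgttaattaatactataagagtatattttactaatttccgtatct
JAZ3 (chr3:6119407-6119706, plus strand): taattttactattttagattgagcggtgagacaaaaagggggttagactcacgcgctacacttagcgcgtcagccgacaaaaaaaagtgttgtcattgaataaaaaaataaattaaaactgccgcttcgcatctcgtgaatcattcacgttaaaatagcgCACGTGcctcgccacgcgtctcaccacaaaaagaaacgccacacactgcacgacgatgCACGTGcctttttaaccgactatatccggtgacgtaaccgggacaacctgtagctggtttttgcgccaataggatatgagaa
JAZ7 (chr2:14572730-14573029, plus strand): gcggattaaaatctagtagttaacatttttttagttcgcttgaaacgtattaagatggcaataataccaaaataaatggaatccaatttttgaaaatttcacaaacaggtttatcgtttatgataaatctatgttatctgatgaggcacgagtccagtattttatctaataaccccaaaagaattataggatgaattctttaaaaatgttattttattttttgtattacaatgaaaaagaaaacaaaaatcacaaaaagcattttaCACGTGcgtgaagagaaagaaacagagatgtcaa
JAZ8 (chr1:10596052-10596351, plus strand): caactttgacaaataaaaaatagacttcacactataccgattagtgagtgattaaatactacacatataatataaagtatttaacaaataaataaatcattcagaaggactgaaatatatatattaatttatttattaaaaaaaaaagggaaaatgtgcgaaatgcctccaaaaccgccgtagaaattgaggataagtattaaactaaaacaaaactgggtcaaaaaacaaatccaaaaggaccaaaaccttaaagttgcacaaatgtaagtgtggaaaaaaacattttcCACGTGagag
JAZ13 (chr3:7879811-7880110, minus strand): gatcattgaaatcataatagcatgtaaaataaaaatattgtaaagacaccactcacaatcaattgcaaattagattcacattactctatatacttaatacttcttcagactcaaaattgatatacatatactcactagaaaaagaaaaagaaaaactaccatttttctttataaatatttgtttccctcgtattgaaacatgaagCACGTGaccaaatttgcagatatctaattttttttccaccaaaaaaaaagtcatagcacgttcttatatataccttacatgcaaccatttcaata
JAZ3 holds 2 copies and the other windows 1 each. Their distance from the gene start ranges from 10 bases in JAZ8 to 140 in JAZ3, and the log2 changes of the 5 genes from 2.11 to 4.56. The JAZ10, JAZ1 and JAZ5 windows hold none of these letters and those genes rose by 5.42, 4.65 and 5.65. A match is a description of the letters, not a site.

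Of 18 genes of early stress signalling 15 rose and 1 fell, against 35.9% and 36% of all genes tested, with a median of 2.00. The replicates leaned apart in this list: replicate 1 was above replicate 2 in 14 of the 18 genes in chr11/17 and in 1 of the 18 in WT. WRKY18, a factor of basal defence, rose from 93.7 and 102 to 2379 and 2043, TCH3, a calmodulin-like protein induced by touch, from 347 and 452 to 3246 and 3507, and RBOHF, an NADPH oxidase, from 653 and 671 to 3188 and 3282. The W-box searched as TTGACC or TTGACT, the site of WRKY factors, was in 26.7% of the promoters of the 15 risen genes against 32.1% of promoters of genes tested. In the ethylene list 7 of 21 rose, near the background share, and 3 fell (5 under quantile normalization), below it. Among the risen were ACC synthase genes, which make the ethylene precursor: ACS2 went from 14.7 and 8.38 to 967 and 1015 and ACS7 from 16.9 and 18.7 to 507 and 502. EIL1, a factor that transmits the ethylene signal, fell from 3106 and 3425 to 462 and 639. Its partner EIN3 was not called (log2 change -0.07), chosen here after its values were seen.

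Of 20 abscisic acid genes 12 rose and 6 fell, against 35.9% and 36% of all genes tested, with a median of 0.96. The phosphatase HAI1, which restrains the hormone's signal and is induced by it, rose from 294 and 217 to 11420.3 and 9434. NCED3, the limiting enzyme of abscisic acid synthesis under drought, rose from 437 and 343 to 1987 and 2227 and the factor ABI5 from 14.7 and 12.5 to 171 and 173. Of 18 genes of cold and drought protection 9 rose and 4 fell. RD20, a caleosin, went from 1577 and 1089.6 to 25953 and 21946 and the dehydrin ERD10 from 3109 and 2927 to 18917 and 19083.

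Salicylate defence split evenly, 8 of 18 higher and 8 lower, beside 35.9% and 36% of all genes tested. EDS5, the plastid exporter of the salicylate precursor, rose from 172 and 174 to 838 and 905. WRKY70 and NPR4, a factor and a receptor of the pathway, fell by 1.89 and 1.72 on the log2 scale. PR1, the usual marker, had 821 and 81.5 in WT and 1301 and 1587 in chr11/17 (adjusted p = 0.0413), so that the WT libraries lay further from each other than the mutant libraries did.

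Of 25 auxin genes 17 fell, each by more than 1, and 4 rose, against 36% and 35.9% of all genes tested. Their median was -1.70. The chr11/17 libraries stood apart in this list, with replicate 1 above replicate 2 in 3 of 25 genes and a median log2 difference of -0.39, against 0.07 in WT and -0.00 between the chr11/17 libraries over all genes tested; the part of this difference in the result was not tested. SAUR22 and SAUR23, small growth genes, had 113 and 121 and 207 and 179 reads in WT and 0 and 0 and 0 and 3 in chr11/17. Both met the rule of few reads in chr11/17 by which genes were named, so their low reads there are no added evidence. SAUR copies are near-identical, and how shared reads were counted is not given in the sources used here. PIN4, an auxin exporter, fell from 2976 and 2825 to 102 and 186, and IAA14, a repressor induced by auxin, from 879.7 and 784 to 81.4 and 88.7. The genes that rose were the 4 GH3 enzymes GH3.2, GH3.3, GH3.5 and GH3.6, which attach amino acids to auxin. GH3.3 stood at 116 and 98.9 in WT and 8045 and 8822 in chr11/17, a log2 change of 6.17 ± 0.10.

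Of 23 gibberellin genes tested 9 rose and 11 fell, against 35.9% and 36% of all genes tested, with a median of -0.39. The 2-oxidases GA2OX6 and GA2OX2, which inactivate the hormone, rose from 135 and 118 to 1389 and 1332 and from 30.6 and 36.4 to 358 and 315. KAO2 and GA3OX1, of its synthesis, fell from 916 and 897 to 148 and 227 and from 411 and 447 to 111 and 129. The receptor GID1B rose by 2.90 ± 0.13 while the DELLA repressor GAI fell by 1.22 ± 0.07. In brassinosteroid synthesis CPD fell from 6324 and 6318 to 1374 and 1573 and DWF1 by 1.73 ± 0.14; 8 of the 15 genes of that list fell and 5 rose. In the cytokinin list 9 of 19 fell and 3 rose (7 with equal library totals). The response regulator ARR9 fell from 1118 and 1200.3 to 408 and 409, and CKX5, an oxidase that destroys cytokinin, rose from 39.1 and 55 to 444 and 459.

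Of 12 expansin and XTH genes of wall loosening 10 fell and 1 rose (2 with equal library totals), with a median of -1.61. Replicate 1 of chr11/17 lay below replicate 2 in 12 of the 12, with a median log2 difference of -0.43 (0.03 in WT). EXPA11 moved from 1826 and 2003 to 177 and 285 and EXPA1 from 12194 and 13084 to 2889.7 and 3471. The stomatal lineage list fell in 10 of 10 members, with a median of -1.35, against 36% of all genes. Replicate 1 of chr11/17 was above replicate 2 in 2 of the 10 (median log2 difference -0.24). TMM, a receptor-like protein that spaces stomata, fell from 779 and 603 to 103 and 159 and FMA, which ends the lineage, from 575 and 547 to 211 and 218. The mesophyll signal STOMAGEN fell from 377 and 363 to 29.4 and 71.9. In leaf polarity and growth 13 of 24 fell and 2 rose (4 with equal library totals), with replicate 1 of chr11/17 above replicate 2 in 4 of the 24 (median -0.27). Among the TCP factors that limit leaf growth TCP4 fell from 1224 and 1114 to 258 and 346, while TCP13 rose from 317 and 290.3 to 2309 and 1934.

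Of 19 mitotic genes tested 8 fell, near the 36% of all genes tested, and 3 rose, below the 35.9%. Their median was -0.44, and more falls were called without chr11/17 replicate 2. Replicate 1 of chr11/17 was above replicate 2 in 2 of the 19, with a median log2 difference of -0.51 (0.09 in WT). CYCB1;2 fell from 535 and 511 to 188 and 294 and the cytokinesis kinesin HIK by 0.90 ± 0.14. CYCB1;1, a cyclin also induced by DNA damage, rose from 150.3 and 122 to 399 and 387. Of 7 tested meristem and boundary genes 6 rose and 1 fell, with a median of 1.25. The KNOX factors STM and KNAT1 rose from 41 and 35.4 to 128 and 139 and from 235 and 227 to 461 and 418, and the receptor kinase CLV1 fell from 1479.8 and 1469.9 to 491 and 550.3.

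**Figure D4:**
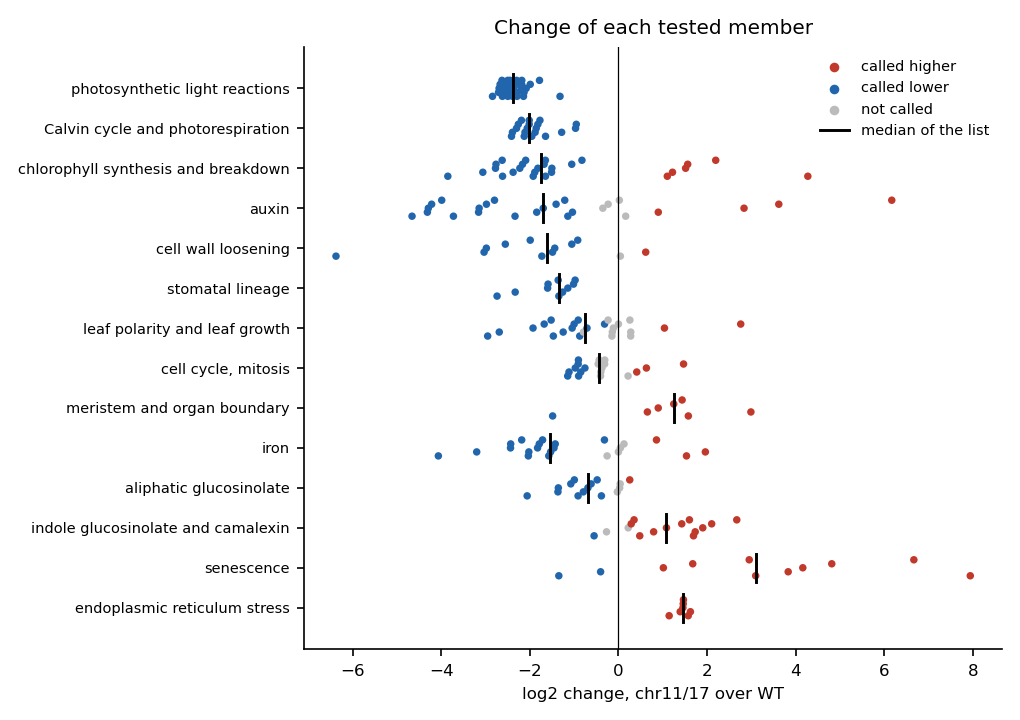
Each point is a tested member of a list at its log2 change of chr11/17 over WT (red called higher, blue called lower, grey not called); the black bar is the list's median. Among the 14 lists drawn, the medians run from -2.39 for the light reactions to 3.1 for senescence, and chlorophyll, auxin and iron lists hold members on both sides.

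Photosynthesis genes fell throughout the lists, against 36% of all genes tested. In the light reactions 31 of 31 members fell by more than 1, with a median of -2.39, and in the Calvin cycle and photorespiration 19 of 19 fell, with a median of -2.02. The glycine decarboxylase subunit GLDP1 went from 59003 and 56093 to 11919.8 and 13299 and glycerate kinase GLYK from 6738 and 6828 to 1488 and 1759.5. PETE1, a plastocyanin, fell from 6478 and 6113 to 816 and 1173. Antenna and RBCS genes are near-identical copies whose single values are uncertain. The chr11/17 libraries differed here: replicate 1 lay below replicate 2 in 31 of 31 light reaction genes, with a median log2 difference of -0.55, while over all genes tested the median difference was -0.00. In WT replicate 1 lay above replicate 2 in 29 of the 31, with a median of 0.08. Both mutant libraries remained below both WT libraries in all 31 and all 19 genes. Over all genes tested, 18221 of 20878 had no overlap between the groups.

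Of 26 chlorophyll genes tested 20 fell and 6 rose, against 36% and 35.9% of all genes tested. Replicate 1 of chr11/17 was above replicate 2 in 5 of the 26 (median log2 difference -0.30). Synthesis genes and their activators were among the falls. CAO, which makes chlorophyll b, went from 11628 and 11275 to 1707 and 2023, and GLK1 and GLK2, activators of chloroplast genes, from 7068 and 6527 to 1843 and 1995 and from 7421 and 7036 to 903 and 1231. The 6 that rose, PAO, PPH, NYC1, NYE1, NYE2 and CLH1, act in breakdown. NYE2, a stay-green protein, rose from 76.6 and 54.2 to 1570.2 and 1313 and the chlorophyllase CLH1 from 1658 and 1382 to 6860.4 and 7089.5.

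Senescence genes rose in 9 of 11 and fell in 2 (1 without WT replicate 1), with a median of 3.1. SAG13, an early marker, went from 267 and 162 to 56599 and 50960.1, and the NAC factors ANAC019 and ANAC055 from 50.5 and 52 to 6477 and 5997 and from 31.7 and 41.5 to 1389 and 1209.8. NAP, a NAC factor of leaf ageing, fell from 786 and 701 to 566 and 552. Of 18 starch and sugar genes 9 rose and 6 fell, beside 35.9% and 36% of all genes tested. GPT2, a plastid sugar-phosphate importer that responds to sugar, rose from 43.2 and 43.7 to 17183 and 13284, BAM5, a beta-amylase, from 206 and 265 to 18205 and 16989.8, and the hexose importer STP13 from 235 and 282 to 4375 and 4194. Of the starch synthesis subunits APL3 rose from 904 and 788 to 11573 and 8941 and APL1 fell from 4789 and 4494 to 533 and 919.

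For the defence metabolites indole glucosinolates and camalexin 12 of 15 genes rose and 1 fell, a fall not called with equal library totals or without WT replicate 2 or either chr11/17 replicate, with a median of 1.08. CYP79B2, which starts the indole branch, rose from 1323 and 1389.7 to 5848 and 5886 and PAD3, the last step to camalexin, from 116 and 89.6 to 636 and 776. For aliphatic glucosinolates, made from methionine, 11 of 15 fell and 1 rose, with a median of -0.69. The single rise was not called under quantile normalization, with DESeq2 or without either WT replicate or chr11/17 replicate 2, and replicate 1 of chr11/17 was above replicate 2 in 1 of the 15 genes (median log2 difference -0.23). Their activators MYB29 and MYB28 fell from 1141 and 977 to 226 and 266 and from 2156 and 2036 to 690.2 and 954. In these pairs the groups did not overlap, as in 18221 of the 20878 genes tested. The flavonoid and anthocyanin enzymes rose in 9 of 10 and fell in 1, a fall not called with equal library totals or without either WT replicate or chr11/17 replicate 1. Replicate 1 of chr11/17 was above replicate 2 in 9 of these 10 (median log2 difference 0.45, 0.21 in WT). LDOX, a late anthocyanin enzyme, went from 239 and 204 to 2718 and 1887. Among regulators the activator TT8 rose from 21.1 and 20.8 to 186 and 156 and the repressor MYBL2 fell from 2115 and 2234 to 194 and 239.6. In phenylpropanoid and wall genes 11 of 20 rose and 5 fell. Each list here stands beside 35.9% higher and 36% lower of all genes tested. C4H, the 2nd enzyme of the pathway, rose from 5338 and 5342 to 26226 and 22207, and the lignin alcohol dehydrogenase CAD5 from 1562 and 1417 to 20789 and 17107.

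Protein and cell stress genes were mostly higher, against 35.9% higher and 36% lower over all genes tested. The endoplasmic reticulum list rose in 7 of 7 with a narrow range, from 1.15 to 1.62. BZIP60, a factor of the unfolded protein response, went from 787 and 780.2 to 2369.7 and 2508 and the disulfide isomerase PDIL1-1 from 2803 and 2789 to 8730.3 and 7992. Heat shock genes rose in 13 of 16 and fell in 0. HSFB1, a heat shock factor, rose from 1282 and 1349 to 6469 and 5648. The heat shock element GAANNTTC was present in 5 of the 13 promoters (38.5%), against 20.0% of early stress genes that rose and 11.2% of promoters of genes tested. Of 14 genes of oxidative stress 9 rose and 3 fell. UPOX, a mitochondrial stress marker, rose from 65.2 and 58.3 to 808 and 999 and the alternative oxidase AOX1A from 970.4 and 974 to 3248 and 3840.1.

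In the iron list 15 of 22 fell and 3 rose, with a median of -1.55. BHLH100, a factor of iron deficiency, had 80 and 85 reads in WT and 0 and 1 in chr11/17, a ratio of 181 with an interval of 32.0 to 7178. The 3 that rose were the ferritins: FER1, the iron store of plastids, went from 4289 and 4204 to 17428 and 15768. In the phosphate list 8 of 16 fell and 5 rose, beside 36% and 35.9% of all genes tested. MGD3, a galactolipid synthase of phosphate starvation, fell from 134 and 165 to 3.78 and 9.6, while the phosphatase PAP17 rose from 1924 and 1542 to 7231 and 6377. In the nitrogen list 6 of 10 fell and 3 rose. Among nitrate transporters NRT1.8, which takes nitrate back from the xylem, rose from 52.7 and 59.2 to 5280.3 and 3989 and NRT1.5, which loads it, fell from 3952 and 4461 to 1047 and 1250.3.

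Of 19 clock genes 6 rose and 8 fell, near the shares of 35.9% and 36% of all genes tested. Their median was -0.01, and the hour of harvest is not given in the labels. PRR5, a repressor that acts in the afternoon, rose from 39 and 41.6 to 331 and 311 and LUX, of the evening complex, from 198 and 219 to 722 and 874. PRR7, an earlier member of the same family, fell from 4043 and 4252 to 1191 and 1275, and the morning factor CCA1 from 4643 and 4428 to 1993 and 2323 while its relative LHY rose from 1863 and 1719 to 2795 and 2574. The evening element AAAATATCT, bound by CCA1 and LHY, was in 3 of the 6 promoters of clock genes that rose and 0 of the 8 that fell, against 2.88% of promoters of genes tested. The windows of the 2 largest of these rises are shown from TAIR10.1 (RefSeq), with the element on either strand in capitals.
PRR5 (chr5:8358547-8358846, minus strand): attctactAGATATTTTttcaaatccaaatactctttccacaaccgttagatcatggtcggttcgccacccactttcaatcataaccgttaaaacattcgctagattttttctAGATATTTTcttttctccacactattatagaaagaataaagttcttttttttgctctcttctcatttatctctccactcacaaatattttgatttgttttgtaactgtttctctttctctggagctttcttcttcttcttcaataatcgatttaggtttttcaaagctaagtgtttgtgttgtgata
LUX (chr3:17182742-17183041, plus strand): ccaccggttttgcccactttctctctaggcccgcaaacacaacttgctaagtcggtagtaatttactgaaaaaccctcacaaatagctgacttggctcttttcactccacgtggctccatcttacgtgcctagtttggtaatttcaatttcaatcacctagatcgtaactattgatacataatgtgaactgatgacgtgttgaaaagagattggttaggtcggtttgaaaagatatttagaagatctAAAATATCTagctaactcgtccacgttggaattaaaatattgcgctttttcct
PRR5 holds the element 2 times, 292 and 187 bases before the gene start on the opposite strand, and LUX once, at 53 bases. The 3rd gene with the element, TOC1, changed by 0.27, from 508 and 512 to 576 and 663.

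Flowering genes moved in both directions. Repressors of the FLC, SVP and AP2 families fell in 8 of 15 and rose in 4. SVP, a MADS-box repressor of flowering, fell from 2536 and 2465 to 197 and 435 (log2 change -3.05 ± 0.31) and MAF1, of the FLC clade, from 1027 and 996 to 478 and 465. In the FT and SOC1 families 6 of 11 fell and 2 rose; among the falls, FD, AGL42 and AGL19 were not called in 3, 3 and 2 of the 4 fits that each left out 1 library. BFT, a repressor related to FT, had 30 and 13 reads in WT and 0 in both chr11/17 libraries, at least 7.85-fold lower, and MFT, a seed dormancy relative, rose from 129.6 and 143 to 496 and 402. FT itself was low in every library, at 10.7 and 22.8 and at 20 and 29.7, and was not called. SPL10, a factor that promotes the adult phase, fell from 440.0 and 473 to 153 and 171, and CDF5, a repressor of the photoperiod pathway, rose from 5.38 and 16.5 to 90.8 and 117. Of 9 tested floral organ identity genes 6 rose and 1 fell, against 35.9% and 36% of all genes tested, with a median of 2.58. The risen genes were AP3, SEP1, SEP2, SEP3, SHP1 and STK. On the same per-million scale AP3 went from 0.351 and 0.216 in WT to 36.3 and 26.5 in chr11/17, and SEP3 from 6.36 and 7.86 to 69.8 and 71.2. The fall, of SEP4, was not called without WT replicate 1 (adjusted p = 0.0561) or chr11/17 replicate 1 (0.0669). PI and FUL were not called (PI at 15.8 and 12.5 against 8.6 and 10.5 on the deposited scale). AG, SHP2, LFY and AP1 were too low to test against WT. AG had deposited values of 12.6 and 6.3 in WT and 0 reads in chr11/17. With no filter on low values 2 genes of this list were called lower.

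Chromatin genes outside the ISWI complex were counted in 3 lists. Of 13 genes of DNA methylation and small RNA silencing 9 fell and 0 rose (1 with equal library totals, with edgeR or without chr11/17 replicate 1), with a median of -0.65. ROS1, a DNA demethylase whose own transcript follows the level of DNA methylation, fell from 1746 and 1663 to 139 and 189, a log2 change of -3.32 ± 0.14. The methyltransferase CMT2 went from 1065 and 973 to 415 and 511 and the small-RNA effector AGO4 stood at 897 and 983 after a log2 change of -0.80 ± 0.09. Of 18 other remodeller genes 13 fell and 0 rose (3 with equal library totals and 1 without chr11/17 replicate 2), and the SWI/SNF ATPase gene CHR23 fell from 710.4 and 713 to 146 and 194. Polycomb and H3K4 methylation genes split evenly, 6 of 19 in each direction, near the shares of 35.9% and 36% of all genes tested. The Polycomb subunit MSI1 rose from 859 and 876 to 1543 and 1444 and SDG8, a histone methyltransferase, fell from 1875 and 1782 to 1139 and 1095.

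The libraries labelled chr11/17 were also set against the 2 other mutants in 1 fit of edgeR to the recovered reads of all 8 libraries. Against arid5, 13905 of 21371 genes were called (65.1%), 6875 higher (32.2%) and 7030 lower (32.9%); against rlt1/2, 13805 were called (64.6%), 6861 higher (32.1%) and 6944 lower (32.5%). These contrasts share the chr11/17 libraries, so each is given with its own values, in CPM, the recovered reads scaled to a common depth with edgeR's TMM factors. CYP94B3 stood at 252 and 220.5 CPM in chr11/17, 1.41 and 1.36 in arid5, 3.88 and 5.15 in rlt1/2 and 1.62 and 1.81 in WT. DXPS1 stood at 646 and 573 in chr11/17, at 3.5 and 1.09 in arid5 and at 30.4 and 19.8 in rlt1/2. Both genes were far higher in chr11/17 than in either other mutant, and for DXPS1 those mutants lay above WT, which had 0 reads. GH3.3 stood at 342 and 373, with 15.1 and 14.1 in arid5 and 16 and 21.6 in rlt1/2.

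Among the lists, 12 of 13 JAZ genes, 10 of 11 of jasmonate breakdown and 13 of 14 tested synthesis genes were higher in each contrast. The shares of all genes called higher were 32.2% against arid5 and 32.1% against rlt1/2. The light reaction genes were lower in 31 of 31 in each contrast, with medians of -1.45 against arid5 and -1.29 against rlt1/2. The stomatal lineage was lower in 9 of 10 against arid5 and 10 of 10 against rlt1/2. The shares of all genes called lower were 32.9% and 32.5%. ROS1 was at 5.9 and 7.97 CPM in chr11/17, 32 and 42 in arid5 and 42.1 and 37.1 in rlt1/2, with 72.8 and 69 in WT. ACD6 was already low in the other mutants, at 3.66 and 9.51 and at 11.7 and 5.09, against 63.3 and 77.3 in WT and 0.0814 and 0.644 in chr11/17. MGD3 instead stood above WT in both, at 8.29 and 13.1 and at 9.55 and 13.2, against 5.57 and 6.86 in WT and 0.163 and 0.403 in chr11/17. Of 22 iron genes 8 were lower and 4 higher than in arid5, with a median of -0.26, a lower share near that of all genes. Against rlt1/2 12 were lower and 4 higher, with a median of -1.35. Of 11 floral organ identity genes tested in this fit, 5 were higher and 2 lower than in arid5. Against rlt1/2, 4 were higher and 2 lower. AP3, SEP2, SHP1 and STK were higher than in both. AG, low in every library, was lower than in both, with 0 reads in chr11/17. It stood at 0.563 and 0.662 CPM in arid5 (edgeR adjusted p = 0.000392) and 0.653 and 0.697 in rlt1/2 (adjusted p = 0.00028). SEP3, a floral MADS factor, was among the lower genes in both contrasts, at 69.8 and 71.2 CPM in chr11/17. It stood at 112 and 81.9 in arid5 (edgeR adjusted p = 0.0195) and 81.5 and 104.8 in rlt1/2 (adjusted p = 0.0346). In WT it was at 6.36 and 7.86, below chr11/17. CHR17 was highest in arid5 and rlt1/2, at 81.5 and 84.9 and at 81.9 and 83.4, against 58.2 and 54.6 in WT and 32.7 and 35.2 in chr11/17.

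**Figure D5:**
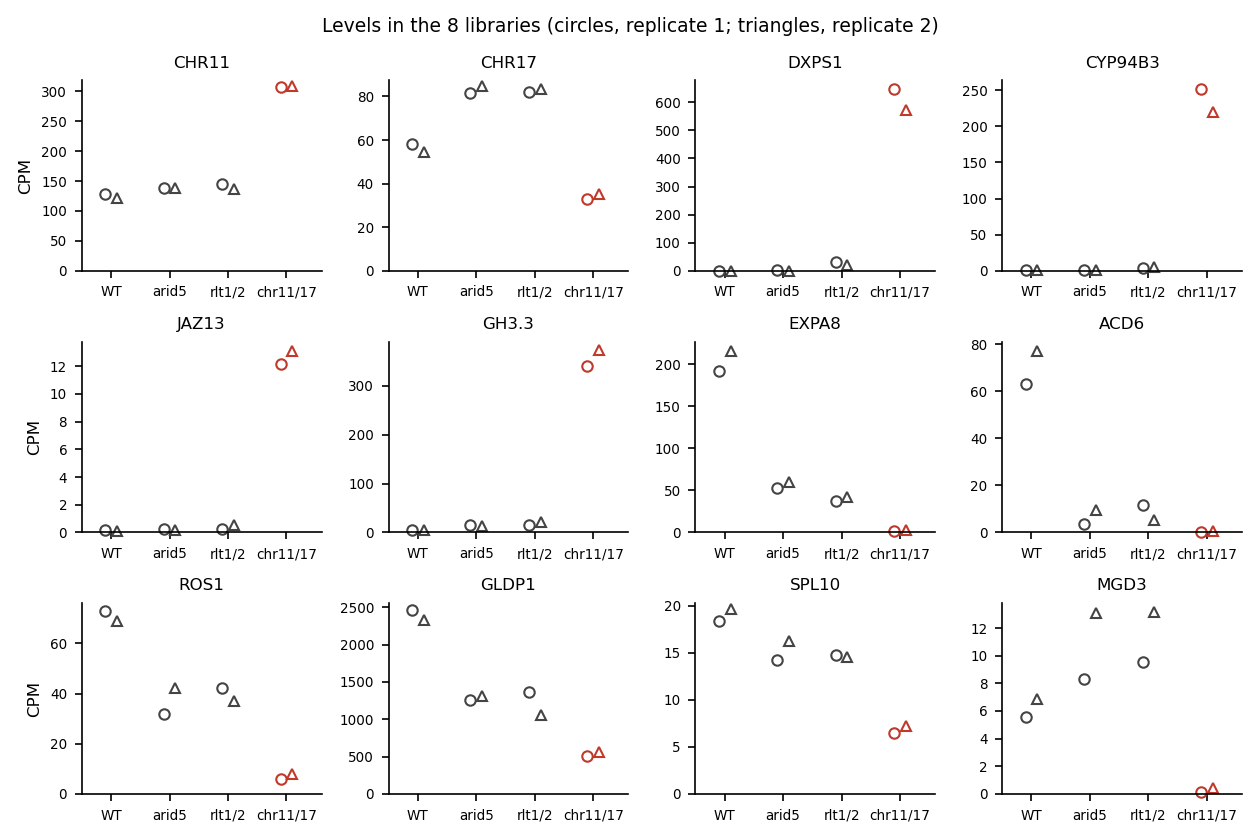
CPM, scaled by TMM factors, of 12 genes in each of the 8 libraries (circles replicate 1, triangles replicate 2; red, chr11/17; each axis starts at 0). CYP94B3, DXPS1, JAZ13 and GH3.3 are high in the chr11/17 libraries, as CYP94B3 at 252 and 220.5, and ROS1, GLDP1, SPL10 and MGD3 are lowest there.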

How the data were processed

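Messenger RNA of 10-day-old Col-0 seedlings was sequenced in 4 groups of 2 libraries. HISAT2, edgeR and the TAIR10 build are named in the submitters' processing notes; the sources used here give no version, read counter or strand setting. The authors deposited a normalised signal per gene, a pseudo-count at a common library size, in 1 table per mutant. The adjustment was inverted here with edgeR 4.0.16 (R 4.3.3), and whole reads were recovered for 100% of values in each library (relative tolerance 1e-10); WT reads were identical in the 3 tables, with 0 differences over 22636 shared genes. Groups came from the labels.

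Each gene was tested on log2(value + 10) with limma's trend method (limma 3.58.1; two-sided, Benjamini-Hochberg over 20878 genes, threshold 0.05) after keeping genes at 10 or more in 2 libraries; a gene near 0 in WT is tested only where the mutant is high. The script was tested on simulated data. Alternatives were pseudocounts of 1 and 50, a minimum of 50 or none, equal totals, quantile normalization, edgeR and DESeq2 1.42.0 on the recovered reads, each library left out, and the replicate number as a block. Folds are ratios of mean normalised reads; a group at 0 reads is set to 3 reads per library, and 1 to 3 reads get an exact 95% interval. Intervals and floors cover counting error only, since PCR reads are not independent molecules. The fold of overlapping or antisense genes is uncertain because strand is unknown.

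The comparison and the 49 gene lists (789 members, 770 in the table) were chosen with earlier results of these data known. Named genes are CHR11 and CHR17; the 12 called genes with the greatest increase and the 12 with the greatest decrease, where groups did not overlap and the higher mean reached 50; the 8 highest genes with at most 3 reads in each library of the other group; up to 4 called members per list with the smallest adjusted p; and members of the jasmonate, floral identity, FT and SOC1 and ISWI lists. KAO2, GA3OX1, PIN4, STOMAGEN, GLK2, APL1, APL3, NAP, PR1, LUX, CCA1, LHY, TOC1, SVP, GH3.2, GH3.6, PAO, PPH, NYC1 and NYE1 were named after their values were seen. Gene names and promoters came from the TAIR10.1 reference (RefSeq), to which 23411 of 23427 entries matched by locus.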

Additional observations from a re-analysis of the deposited data

How the results depend on the processing

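Under the 13 alternatives the genes called in chr11/17 against WT numbered 12441 to 15289, against 14992, each within 1.5 times, with 14847 called by both limma and edgeR. Leaving out 1 library gave 12441 to 14255 calls, 6276 to 7030 higher and 6148 to 7225 lower; with a single library left in a group it is assumed to vary like the other. With DESeq2 13151 were called. Of the 276 named genes tested, 263 were called, no called value changed sign under these alternatives, and 4 to 9 calls were lost per library left out. Whether the replicate numbers pair the samples is not known. The deviations of same-numbered libraries correlated at 0.0139 over the genes tested, which cannot settle it with 2 libraries per group. With the replicate block 14833 genes were called, 7387 higher and 7446 lower; against arid5 it gave 13771 calls and against rlt1/2 13666 calls. Depth limits the genes near 3 reads per library, whose ratios have wide intervals.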

Other observations

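MicroRNA genes were measured through their primary transcripts. Of 24 annotated loci tested, 15 were lower and 3 higher in chr11/17, with a median log2 change of -1.02, against 36% lower and 35.9% higher over all genes; protein-coding genes had a median of -0.01. MIR156a and MIR156c, precursors of the microRNA that holds back the adult phase, stood at 43.1 and 39.6 and at 41.9 and 25.1 in WT, and at 1.86 and 7.69 and at 0 and 1.93 in chr11/17. MIR167d fell from 241 and 276 to 54.5 and 64.9. MIR162a, whose product targets the microRNA-processing enzyme DCL1, fell from 68.4 and 69.7 to 10.5 and 16.3, and MIR168a, whose product targets AGO1, was not called (13.7 and 16.6, 21.1 and 18.1). MIR163 rose from 77.9 and 82.2 to 399 and 337. These loci were chosen after their values were seen, their levels are those of the precursor and not of the mature microRNA, and their number is small.

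Of 10 cuticle genes 4 were higher and 2 lower, beside 35.9% and 36% of all genes tested. The lower count was 0 without WT replicate 1, 1 without chr11/17 replicate 2, with equal library totals or with DESeq2, and 5 under quantile normalization. KCS1, an elongase of wax fatty acids, rose from 1062 and 1129 to 3778 and 3419, and MYB96, a factor that links drought to wax, from 331 and 297 to 1136 and 966. In the sulfur list 5 of 9 were called lower and 2 higher, each by less than 1 on the log2 scale. The lower count was 1 without either WT replicate or with equal library totals, 2 without chr11/17 replicate 1 and 3 with a pseudocount of 1 or no filter; the higher count was 1 without chr11/17 replicate 2. The sulfate transporter SULTR1;2 fell from 2917 and 3470.0 to 1912 and 1948.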
